A study of Mus musculus with 23 samples.

Results

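Vascular tone is set by short-range signals between endothelium and the cells around it. Endothelin-1 (Edn1) is cut from its precursor by the endothelin-converting enzyme (Ece1) and acts on ETA (Ednra), the receptor through which smooth muscle contracts, and on ETB (Ednrb), which in endothelium triggers nitric oxide release and clears the peptide. Nitric oxide is made in endothelium by Nos3, apelin (Apln) relaxes vessels and guides their growth through its receptor APJ (Aplnr), and angiotensin-converting enzyme (Ace) makes angiotensin II and breaks down bradykinin. These 8 genes were followed through the endothelial-to-haematopoietic transition in cells derived from mouse embryonic stem (ES) cells. They were found by matching the RefSeq accession of each array probe to its gene symbol, with the brightest probe taken for a gene that had several, out of 20145 genes with a probe. All 8 were among the 15202 genes bright enough to be tested.

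All cells carried an inducible human RUNX1-ETO gene, the product of a translocation found in acute myeloid leukaemia, in 1 ES cell line with intact Runx1 and labelled C57BL/6. RUNX1-ETO was switched on with doxycycline (Dox) at 0.1 μg per ml, either on day 1 of blast culture, with cells sorted on day 2, or for 12 h in myeloid progenitors, so that the Dox exposure of the last stage differs from that of the other 3. The sorted stages were haemogenic endothelium (HE), HE2, which has gained CD41 and still has Tie2, and CD41+KIT+Tie2- progenitors, and the last stage was myeloid progenitors grown in culture. RNA of uninduced and induced cells was hybridised to 1-colour Agilent arrays, 3 per group and 2 per group for the progenitors, on 3 slides. The labels call them biological replicates, save that induced myeloid progenitor 3 is called a technical replicate in 1 field, so that the spread there may be technical in part. An additional uninduced progenitor array, a technical replicate by its title, entered the normalization but not the comparisons, which rest on 22 arrays. HE and HE2 arrays lay on slides 1 and 2, and myeloid progenitor arrays on slide 3, which was scanned on another date. The uninduced progenitor arrays compared lay on slides 1 and 2 and the induced ones on slides 1 and 3. The Dox comparison in progenitors therefore partly crosses slides and scan dates.

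Values are log2 intensities, and they were compared between arrays and never between genes, since probes differ in brightness for reasons other than RNA amount. The test was limma's, a gene passed when its P before adjustment was 0.001 or lower and its level differed 2-fold or more, and adjusted P values (Benjamini-Hochberg) run over all genes tested. No spot was saturated, and between 48.8 and 78.4% of the spots of each array stood clear of background. The probe of Runx1t1, the mouse counterpart of the ETO part of the fusion, rose with Dox by 2.08 (SE 0.335) in HE2, 3.96 (SE 0.41) in progenitors and 2.06 (SE 0.335) in myeloid progenitors, and its change in HE was 1.24 (SE 0.335, adjusted P = 0.0155), which missed the threshold. Whether it detects the human gene is not stated in the sources used here. In bulk samples, fewer cells of a type and less RNA per cell cannot be told apart. Of the 8 endothelial marker genes listed (Pecam1, Cdh5, Kdr, Tek, Tie1, Emcn, Eng and Esam), 7 or 8 were above background on every array, and their summed intensity, which was 78300 to 163000 on uninduced and 83500 to 148000 on induced HE arrays, fell to 11300 to 15400 on uninduced myeloid progenitor arrays.

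Edn1, the ligand of the endothelin system, fell along the uninduced course. Its log2 intensity was 11.82, 12.27 and 11.75 on uninduced HE arrays and 10.10, 10.54 and 9.03 on uninduced HE2 arrays. It was 6.21 and 5.67 on uninduced progenitor arrays and 5.74, 6.39 and 6.03 on uninduced myeloid progenitor arrays. HE2 lay wholly below HE and progenitors wholly below HE2, and progenitors and myeloid progenitors overlapped. The fall was 4.16-fold from HE to HE2 (log2 change -2.06, SE 0.374, adjusted P = 0.00148) and 15.4-fold from HE2 to progenitors (log2 change -3.95, SE 0.418, adjusted P = 6.64e-06).

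With Dox Edn1 was lower in HE and higher in progenitors. On induced HE arrays its log2 intensity was 10.55, 10.49 and 9.08, and on induced HE2 arrays it was 9.82, 10.23 and 9.84. All induced HE arrays lay below all uninduced HE arrays, and induced HE, induced HE2 and uninduced HE2 overlapped. On induced progenitor arrays it was 8.04 and 8.12, and on induced myeloid progenitor arrays 7.74, 7.22 and 7.14, in both stages above every uninduced array. Dox went with a 3.75-fold lower level in HE (log2 change -1.91, SE 0.374, adjusted P = 0.00154) and a 4.41-fold higher level in progenitors (2.14, SE 0.458, adjusted P = 0.00787), while the change in HE2 was 0.07 (95% confidence interval -0.71 to 0.86). In myeloid progenitors the change was 1.31 (SE 0.374, adjusted P = 0.0237), which missed the threshold and passed with 75th percentile scaling (1.86) or when only the myeloid progenitor arrays were fitted. It also passed with the replicate number as a block (adjusted P = 0.00815), but not with exchanged numbers (adjusted P = 0.0309). On uninduced myeloid progenitor 3 only 1 of the 10 Edn1 spots, and on uninduced myeloid progenitor 1 only 9, were well above background. The HE change did not pass when only the HE arrays were fitted. The Dox change in progenitors did not pass without uninduced progenitor 2 (1.87), without induced progenitor 1 (2.18) or without induced progenitor 2 (2.10), nor with slide (1.83) or scan date (2.10) as a block, and it was 1.83 on slide 1 alone and 2.23 on slide 3, where the uninduced array is the additional one.

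The window from 250 bases before to 30 after the annotated start of Edn1 is shown because Edn1 fell with Dox at one stage and rose at another, with matches on either strand in capitals to the RUNX letters TGNGGT, to the AP-1 letters TGANTCA or to the GATA letters AGATAA. It lies at chr13:42301226-42301505 on the plus strand (RefSeq, GRCm38.p6).
Edn1: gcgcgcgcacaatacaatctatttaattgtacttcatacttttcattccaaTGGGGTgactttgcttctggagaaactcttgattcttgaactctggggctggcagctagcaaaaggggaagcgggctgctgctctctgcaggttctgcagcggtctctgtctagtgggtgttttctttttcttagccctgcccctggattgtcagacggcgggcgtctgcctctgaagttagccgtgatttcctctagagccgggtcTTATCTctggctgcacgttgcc
The capitals mark TGGGGT, a match to the RUNX letters at position -199 from the start, and TTATCT, the reverse complement of the GATA letters, starting at base 9 after it, and there was no AP-1 match. Of 32851 promoter windows of this length, 43.4% hold the RUNX letters, 10.7% the GATA letters and 7.46% the AP-1 letters, so that a RUNX match is common. A match is a description of the letters and not evidence of binding.

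**Figure D1:**
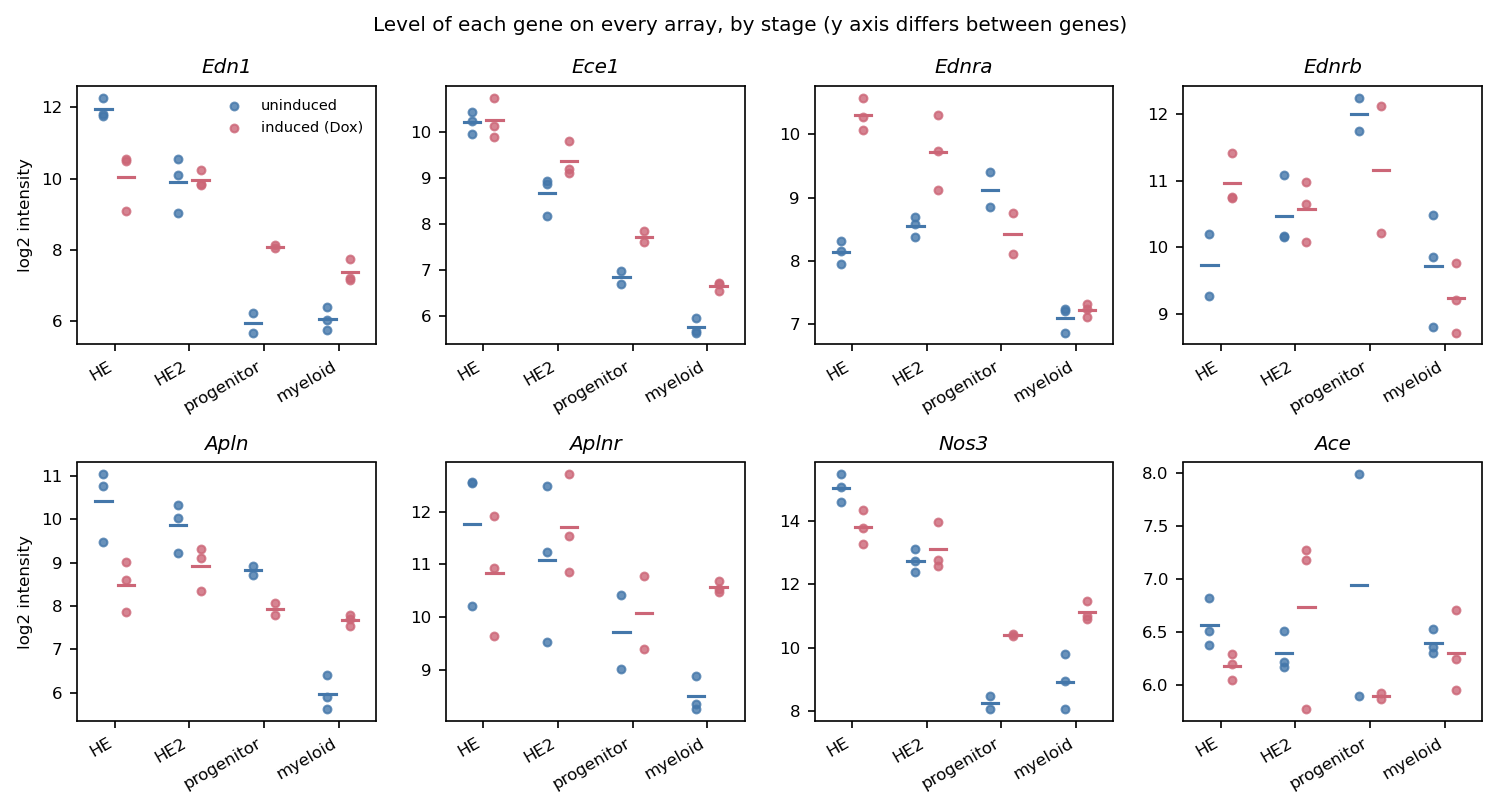
Log2 intensity (y axis, scaled separately for each gene) of the 8 genes on each array at 4 stages (x axis), with uninduced arrays in blue, induced arrays in red and a bar at each group mean. Edn1, Ece1 and Nos3 fall from HE to progenitors in uninduced cells, with Edn1 from a mean of 11.95 to 5.94, and the induced progenitors and myeloid progenitors lie above the uninduced ones for these 3 genes.

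Ece1, which releases active endothelin-1, fell along the same course. Its log2 intensity was 10.23, 10.42 and 9.95 on uninduced HE, 8.94, 8.87 and 8.17 on uninduced HE2, 6.99 and 6.71 on uninduced progenitor and 5.65, 5.96 and 5.69 on uninduced myeloid progenitor arrays. The 4 stages did not overlap. The log2 changes of the steps were -1.54 (SE 0.245, adjusted P = 0.000511), -1.81 (SE 0.274, adjusted P = 0.000209) and -1.09 (SE 0.274, adjusted P = 0.00573), and each passed. The last step lost its call under most alternatives, those that leave out any uninduced array of either stage included (-0.95 to -1.22), and on slide 3 alone, with the additional progenitor array, it was -0.74.

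Dox changed Ece1 past the threshold at no stage. In HE the change was 0.04 (95% confidence interval -0.47 to 0.56), with induced arrays at 9.88, 10.11 and 10.73 among the uninduced ones. Induced arrays lay above every uninduced one in HE2 (9.10, 9.20 and 9.80), in progenitors (7.84 and 7.60) and in myeloid progenitors (6.72, 6.71 and 6.55). The changes there were 0.71 (SE 0.245, adjusted P = 0.0557), 0.87 (SE 0.301, adjusted P = 0.106) and 0.89 (SE 0.245, adjusted P = 0.0196). Scaling arrays to their 75th percentile in place of quantile normalization made the myeloid change 1.52 and past the threshold. Induced cells still lost Ece1 from HE2 to progenitors (-1.64, SE 0.274, adjusted P = 0.000477), and from HE to HE2 they changed by -0.87 (SE 0.245, adjusted P = 0.0431), which missed the threshold and passed without induced HE array 1 (-1.05) or induced HE2 array 3 (-1.09).

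Ednra, the ETA receptor, rose with Dox in HE and HE2. Its log2 intensity was 7.95, 8.15 and 8.31 on uninduced and 10.07, 10.58 and 10.27 on induced HE arrays. In HE2 it was 8.69, 8.58 and 8.37 without and 9.74, 9.12 and 10.31 with Dox. Induced arrays lay above all uninduced ones in both. Dox went with a rise of 4.51-fold in HE (log2 change 2.17, SE 0.255, adjusted P = 1.09e-05) and 2.26-fold in HE2 (1.18, SE 0.255, adjusted P = 0.00338). The HE2 rise fell below the threshold without uninduced HE2 array 3 (1.09), induced HE2 array 1 (1.17) or induced HE2 array 3 (0.88), and when only the HE2 arrays were fitted. The HE rise passed under every alternative run.

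In the later stages the order was not the same. Uninduced progenitor arrays had 9.40 and 8.85, above the induced ones at 8.76 and 8.10, for a change of -0.69 (SE 0.313, adjusted P = 0.221). Uninduced myeloid progenitors had 6.86, 7.21 and 7.23 and induced ones 7.24, 7.11 and 7.31, which overlapped (0.12, 95% confidence interval -0.42 to 0.66). The Dox change of Ednra differed between progenitors and HE2 by -1.87 (SE 0.404, adjusted P = 0.0719), a term that passed at the unadjusted threshold, and did not pass without uninduced progenitor 1 (-1.6) or induced progenitor 2 (-1.54), or with slide (-1.56) or scan date (-1.54) as a block. Between myeloid progenitors and HE the difference was -2.05 (SE 0.361, adjusted P = 0.00147). In uninduced cells Ednra fell 4.07-fold from progenitors to myeloid progenitors (-2.02, SE 0.285, adjusted P = 3.92e-05). That comparison is between slides, apart from the additional progenitor array, against which the change on slide 3 was -1.38, and with slide as a block it was -1.37 and no longer passed.

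The Ednra window, shown because its change with Dox in HE was opposite to that of the ligand, lies at chr8:77724423-77724702 on the minus strand (RefSeq, GRCm38.p6).
Ednra: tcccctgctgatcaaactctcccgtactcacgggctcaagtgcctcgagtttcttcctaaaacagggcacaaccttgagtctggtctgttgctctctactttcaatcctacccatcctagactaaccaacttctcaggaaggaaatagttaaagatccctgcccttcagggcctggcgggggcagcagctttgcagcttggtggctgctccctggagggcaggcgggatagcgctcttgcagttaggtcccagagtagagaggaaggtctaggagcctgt
None of the RUNX, AP-1 or GATA letters is in this window, so it has no capitals.

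Ednrb, the ETB receptor, which is also needed by neural crest cells, gave values that differed between its probes. Its log2 intensity was 9.27 and 10.20 on uninduced HE arrays 1 and 2, and the spot of array 3 was marked as an outlier and left out. It was 10.76, 10.74 and 11.41 on induced HE, 10.16, 10.17 and 11.08 on uninduced HE2 and 10.08, 10.98 and 10.65 on induced HE2 arrays. Uninduced progenitors had the highest levels, 12.24 and 11.74, against 12.11 and 10.21 with Dox, and myeloid progenitors had 8.81, 10.48 and 9.85 without and 8.72, 9.21 and 9.77 with Dox. Dox changes were 1.23 (95% confidence interval 0.09 to 2.38) in HE, 0.10 (-0.93 to 1.13) for HE2, -0.83 (-2.09 to 0.43) for progenitors and -0.48 (-1.51 to 0.55) for myeloid progenitors, and none passed. Uninduced cells lost Ednrb from progenitors to myeloid progenitors (-2.28, SE 0.544, adjusted P = 0.0042). A second probe of Ednrb gave -0.54 (SE 0.934) for that step and -0.02 (SE 0.835) for Dox in HE, and slide as a block gave -0.16 for the step, and it was not called without uninduced myeloid progenitor 1 (-1.82) or 3 (-2.35) or uninduced progenitor 1 (-2.02) or 2 (-2.53).

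Nos3, the endothelial nitric oxide synthase, also fell from HE to progenitors in uninduced cells. On uninduced arrays its log2 intensity was 14.60, 15.07 and 15.47 in HE, 12.74, 13.10 and 12.38 in HE2, 8.49 and 8.07 in progenitors and 8.07, 9.80 and 8.95 in myeloid progenitors. HE, HE2 and progenitors did not overlap, and progenitors and myeloid progenitors did. It fell 4.93-fold from HE to HE2 (-2.30, SE 0.405, adjusted P = 0.00115) and 22.0-fold from HE2 to progenitors (-4.46, SE 0.453, adjusted P = 4.37e-06). On induced arrays it was 13.28, 13.78 and 14.35 in HE, 12.58, 12.78 and 13.96 in HE2, 10.43 and 10.38 in progenitors and 11.48, 11.02 and 10.91 in myeloid progenitors. Induced HE arrays lay below, and induced progenitor and myeloid progenitor arrays above, every uninduced array of their stage, and HE2 arrays overlapped.

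Dox went with a rise of Nos3 of 4.36-fold in progenitors (2.12, SE 0.497, adjusted P = 0.0149) and 4.59-fold in myeloid progenitors (2.20, SE 0.405, adjusted P = 0.000966). In HE the change was -1.24 (SE 0.405, adjusted P = 0.0448), short of the threshold, and in HE2 it was 0.36 (95% confidence interval -0.49 to 1.22). The progenitor rise lost its call without any 1 of the 4 arrays (2.33 without uninduced progenitor 1, 1.92 without uninduced progenitor 2, 2.10 without induced progenitor 1 and 2.15 without induced progenitor 2), with slide (2.29) or scan date (2.15) as a block, and on a second probe of 10 spots (1.97, SE 0.603). That probe gave -1.41 (SE 0.492) in HE and 1.97 (SE 0.492) in myeloid progenitors, where it passed. Within slides the change in HE was -1.56 and -1.40. In progenitors it was 1.94 on slide 1 and 2.06 on slide 3, each between 1 induced and 1 uninduced array. The uninduced array on slide 3 is the additional one, which was not in the fit.

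Apln, the apelin ligand, fell with Dox in HE and rose with Dox in myeloid progenitors. Its log2 intensity was 11.04, 10.77 and 9.47 on uninduced and 9.01, 8.60 and 7.87 on induced HE arrays. In myeloid progenitors it was 6.40, 5.91 and 5.62 without and 7.55, 7.79 and 7.71 with Dox. The groups did not overlap at either stage and lay in opposite order. The fall in HE was 3.83-fold (-1.94, SE 0.385, adjusted P = 0.00173) and the rise in myeloid progenitors 3.27-fold (1.71, SE 0.385, adjusted P = 0.00518). The HE fall did not pass without uninduced HE 1 (-1.63) or induced HE 3 (-1.62). The myeloid rise did not pass without uninduced myeloid progenitor 2 (1.67) or 3 (1.53), or induced myeloid progenitor 2 (1.66) or 3 (1.70), nor with an offset of 50 (1.30) or the deposited log2 values (1.34), and uninduced myeloid progenitor 3 was not well above background for Apln.

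Between those stages Apln changed by -0.94 (SE 0.385, adjusted P = 0.108) in HE2, where arrays had 10.34, 10.02 and 9.23 without and 9.11, 8.35 and 9.31 with Dox, and by -0.88 (SE 0.471, adjusted P = 0.31) in progenitors, with 8.72 and 8.92 without and 8.08 and 7.79 with Dox. Neither change passed. Uninduced HE and HE2 arrays overlapped, and the largest step of Apln was that from progenitors to myeloid progenitors, 7.18-fold down (-2.84, SE 0.43, adjusted P = 8.01e-05). On slide 3 alone, with the additional progenitor array, that step was -2.33, and with scan date as a block it was -2.56 and did not pass. The Apln window is shown as that of the second ligand and lies at chrX:48034824-48035103 on the minus strand (RefSeq, GRCm38.p6).
Apln: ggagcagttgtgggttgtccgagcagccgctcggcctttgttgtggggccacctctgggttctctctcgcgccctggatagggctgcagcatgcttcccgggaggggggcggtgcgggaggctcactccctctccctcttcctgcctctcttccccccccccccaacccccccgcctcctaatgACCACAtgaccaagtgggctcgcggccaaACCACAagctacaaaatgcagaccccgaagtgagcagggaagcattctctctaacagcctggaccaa
Both capitals are ACCACA, the reverse complement of a match to the RUNX letters, at positions -66 and -37 from the start, and there was no AP-1 or GATA match. In all, 6 of the 8 genes had windows in the table, 10 in number, and the AP-1 letters were in none of them.

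Aplnr, the receptor of apelin, had a wider range within each group of sorted cells than any of its Dox changes there. On uninduced arrays its log2 intensity was 12.54, 10.20 and 12.56 in HE, 12.49, 9.52 and 11.24 in HE2, 10.42 and 9.02 in progenitors and 8.25, 8.88 and 8.35 in myeloid progenitors. On induced arrays it was 11.91, 9.64 and 10.93 in HE, 12.71, 11.53 and 10.86 in HE2, 10.77 and 9.39 in progenitors and 10.54, 10.69 and 10.48 in myeloid progenitors. The array numbered 2 was the lowest in uninduced HE, uninduced HE2, induced HE and both progenitor groups, and groups overlapped at the 3 sorted stages. In myeloid progenitors the groups stood apart, and the change there was 2.08 (SE 0.749, adjusted P = 0.076), which did not pass when all groups shared their spread and passed when only the myeloid progenitor arrays were fitted. The changes in HE, HE2 and progenitors were -0.94 (95% confidence interval -2.51 to 0.64), 0.62 (-0.95 to 2.19) and 0.36 (-1.57 to 2.29).

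Ace stayed near the filter on dim genes, a log2 intensity of 6.5 on at least 1 array, at all stages. Its log2 intensity lay between 5.77 and 7.99 on all arrays, with the highest value on uninduced progenitor 2 and 5.89 on uninduced progenitor 1. Induced HE arrays (6.29, 6.20 and 6.05) lay below uninduced ones (6.51, 6.38 and 6.82), and arrays of the other stages overlapped. Dox changes were -0.39 (95% confidence interval -1.25 to 0.47) in HE, 0.44 (-0.42 to 1.30) for HE2, -1.04 (-2.09 to 0.01) for progenitors and -0.10 (-0.96 to 0.76) for myeloid progenitors, and none passed. Without uninduced progenitor 1 the progenitor change was -2.09 and passed, and without uninduced progenitor 2 it was 0.01.

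**Figure D2:**
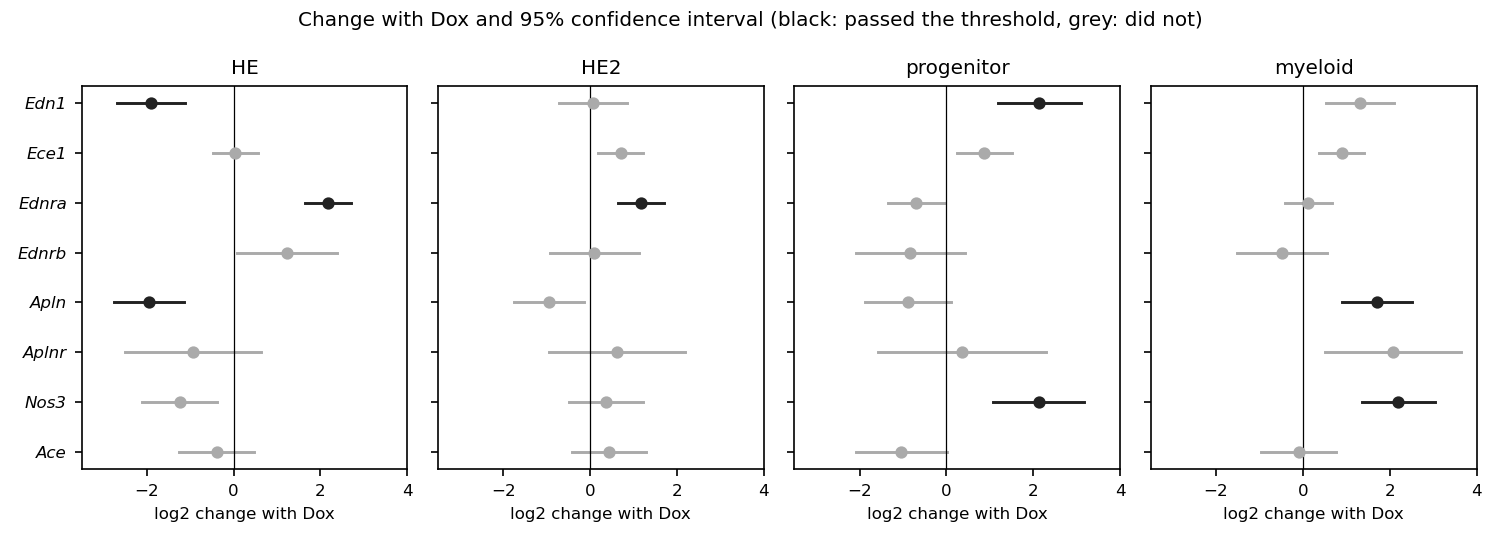
Log2 change with Dox (x axis) of each gene (y axis) at each of the 4 stages, with the point at the estimate and the line as its 95% confidence interval, black where the threshold was passed. Edn1 and Apln lie left of 0 in HE (-1.91 and -1.94), Edn1 lies right of it in progenitors (2.14) and Apln in myeloid progenitors (1.71), and Ednra is past the threshold in HE (2.17) and HE2 (1.18).

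Counted together, 3 of the 8 genes passed with Dox in HE (Ednra up, Edn1 and Apln down), where 7.09% of all genes tested did, 4.7% upward and 2.39% downward. In HE2 it was 1 of 8 (Ednra up), against 7.22% of all genes, 5.17% upward and 2.05% downward. In progenitors 2 of 8 rose (Edn1 and Nos3), with 3.73% of all genes passing, and in myeloid progenitors 2 of 8 rose (Nos3 and Apln), with 6.31% passing. The median log2 change of the 8 genes was -0.67, 0.40, -0.17 and 1.1 in these 4 stages, and that of all genes tested lay between -0.044 and -0.008. The study lists Edn1, Ednra and Nos3 among its endothelial genes from these same arrays, so their directions are not independent evidence.

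Whether Dox acted differently by stage was tested with interaction terms. No member passed for HE2 against HE, where 1.34% of all genes did, and the largest difference was that of Edn1 (1.98, SE 0.528, adjusted P = 0.0946). It passed with an offset of 50 (1.93), with slide as a block (1.98), and without induced HE array 1 (2.24), induced HE array 2 (2.20) or uninduced HE2 array 2 (2.30). With the replicate number as a block it passed too (adjusted P = 0.0413), but not with the numbers exchanged as in the deposited log2 table (adjusted P = 0.115). For progenitors against HE2, 1 of 8 passed (Ednra) and 0.645% of all genes. Edn1 differed there by 2.07 (SE 0.591, adjusted P = 0.223), which passed with the replicate block (adjusted P = 0.132), with 75th percentile scaling (2.86) or without uninduced HE2 array 3 (2.50), and not with the exchanged numbers (adjusted P = 0.23). For myeloid progenitors against HE, 4 of 8 passed and 4.72% of all genes. There the Dox change was higher in myeloid progenitors by 3.65 for Apln (SE 0.544, adjusted P = 0.000408), 3.22 for Edn1 (SE 0.528, adjusted P = 0.000869) and 3.44 for Nos3 (SE 0.573, adjusted P = 0.000956), and lower by the Ednra value given above. These stages also differ in the length of Dox exposure and in slide, which cannot be told apart from stage. Between progenitors and HE, a term added after the others had been seen, Edn1 differed by 4.05 (SE 0.591, adjusted P = 0.000789), Nos3 by 3.37 (SE 0.641, adjusted P = 0.00496) and Ednra by -2.87 (SE 0.404, adjusted P = 0.000601), or 3 of 8 with 2.97% of all genes. Each of these 3 and the 4 myeloid terms passed under every alternative run.

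Along the uninduced course, 3 of 8 genes fell from HE to HE2 (Edn1, Ece1 and Nos3), with 5.07% of all genes passing and 2.67% falling, and the same 3 fell from HE2 to progenitors, with 5.39% passing and 3.62% falling. From progenitors to myeloid progenitors 4 of 8 fell (Apln, Ednra, Ednrb and Ece1), where 13.9% of all genes passed and 6.93% fell. The uninduced arrays compared in this last step lay on different slides and scan dates, which cannot be told apart from stage. Ece1 lost its call for this step under 13 of 18 alternatives, Ednrb under 9 of 20, Ednra under 2 of 18 and Apln under 1 of 18. In induced cells 0 of the 8 passed in limma from HE to HE2, with 3.1% of all genes passing, although 2 (Ece1 and Ednra) had an unadjusted P under 0.05. The changes of Edn1 and Nos3 there were -0.08 (95% confidence interval -0.86 to 0.71) and -0.70 (-1.55 to 0.16). From HE2 to progenitors 4 of 8 fell with Dox, with 7.36% of all genes passing and 5.34% falling, namely Nos3 (-2.70, SE 0.453, adjusted P = 0.000492), Edn1 (-1.88, SE 0.418, adjusted P = 0.00457), Ece1 and Ednra (-1.30, SE 0.285, adjusted P = 0.00433). Without induced progenitor 2 this count was 2, with Edn1 at -1.92 and Ednra at -0.97, and Edn1 also did not pass without induced HE2 array 2 (-1.75) or induced progenitor 1 (-1.84), nor Ednra without induced HE2 array 3 (-1.0). Nos3 did not pass with slide as a block (-2.49) or on its second probe (-1.64).

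**Figure D3:**
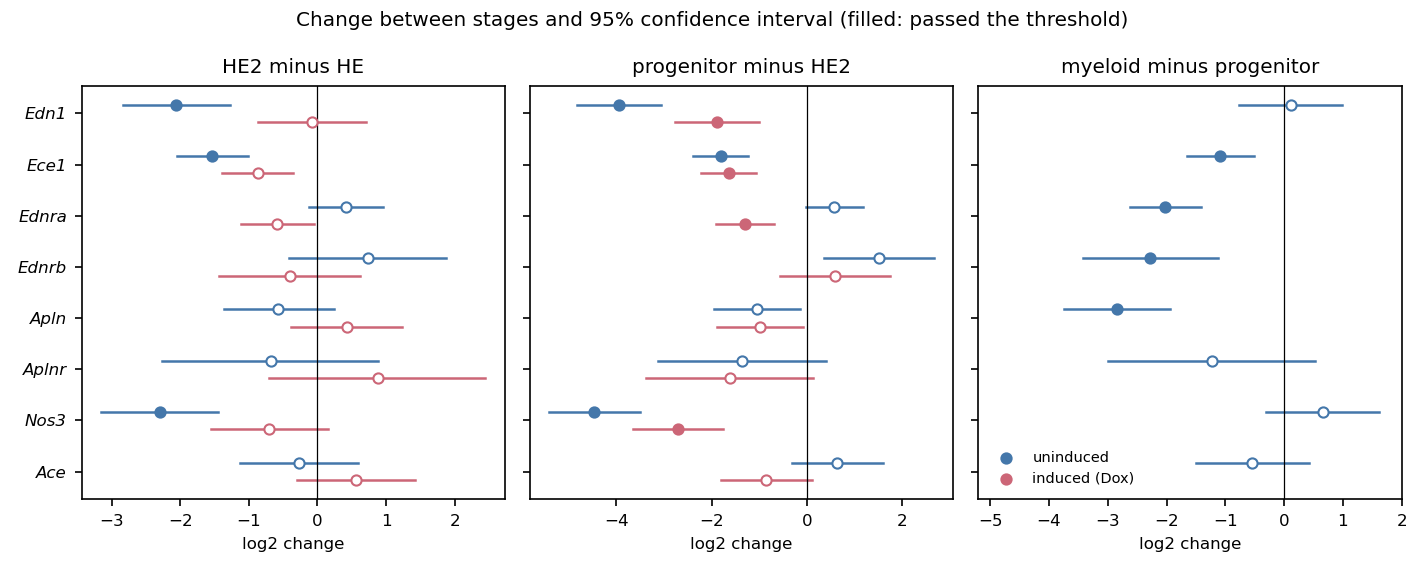
Log2 change from one stage to the next (x axis) of each gene (y axis) in uninduced cells (blue) and induced cells (red), with 95% confidence intervals and filled points where the threshold was passed. From HE2 to progenitors Edn1 changed by -3.95 without and -1.88 with Dox, and Nos3 by -4.46 and -2.70.

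The endothelial markers, taken as a sum, were brighter with Dox from HE2 on, though most did not pass singly in HE2 or progenitors. Their summed intensity was 49800 to 70900 on uninduced and 110000 to 129000 on induced HE2 arrays, 25900 to 27000 on uninduced and 45600 to 54700 on induced progenitor arrays, and 11300 to 15400 on uninduced and 49700 to 59600 on induced myeloid progenitor arrays. Of the 8 markers, 2 rose with Dox in HE2 (Emcn by 2.84 and Esam by 1.38), the same 2 in progenitors (by 3.42 and 1.83) and 6 in myeloid progenitors, Tek by 3.07 among them. The share of all genes that rose at these stages was 5.17, 3.03 and 5.13%. Tek encodes Tie2, against which the progenitors were sorted, and its log2 intensity was 8.63 to 8.71 on uninduced and 10.91 to 11.29 on induced progenitor arrays (change 2.43, SE 0.879, adjusted P = 0.124). The part of these markers in the rises of Ednra in HE2 and of Edn1, Nos3 and Apln later was not tested. In HE, 0 of 8 endothelial markers passed in limma, with Cdh5 at -0.73 (SE 0.256, adjusted P = 0.0632) as 1 marker with an unadjusted P under 0.05, while Itga2b, which encodes CD41, fell by 3.21 (SE 0.652), as 1 of 7 haematopoietic markers. The summed intensity of 7 cardiac and smooth muscle markers, of which 6 were tested, was 105000 to 239000 on uninduced and 36800 to 50400 on induced HE arrays, with 1 called higher (Myl7, 1.16, SE 0.213) and 1 called lower (Acta2, -2.01, SE 0.434). In HE2 it was 30700 to 107000 on uninduced and 12000 to 12800 on induced arrays, and 4 of the 6 fell, namely Acta2 (-2.99), Actc1 (-2.97), Cnn1 (-2.48) and Tagln (-2.42). The part of these markers in the HE and HE2 changes, that of Ednra included, was not tested.

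Other genes of the same pathways were taken from lists that were drawn up with earlier results known, 69 genes of which 50 were tested. With Dox 6 rose and 3 fell in HE, 9 rose and 1 fell in HE2, 7 rose and 0 fell in progenitors, and 9 rose and 0 fell in myeloid progenitors. The share of all genes that rose was 4.7% at HE, 5.17% at HE2, 3.03% at the progenitor stage and 5.13% at the myeloid stage. In progenitors and myeloid progenitors, 0.704% and 1.18% of all genes fell.

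Among the pathway genes named, a partner of the adrenomedullin receptor had the largest rise. Ramp2, which carries the receptor Calcrl to the cell surface and makes it respond to adrenomedullin, had a log2 intensity of 11.12 to 12.20 on 3 uninduced and 16.17 to 16.65 on 3 induced myeloid progenitor arrays, a 28.1-fold rise (4.81, SE 0.235). It rose by 3.44 (SE 0.288) in progenitors and 1.95 (SE 0.235) in HE2. Ramp3, a second partner of Calcrl, rose at all 4 stages, by 1.25 (SE 0.297), 2.48 (SE 0.297), 2.44 (SE 0.364) and 1.95 (SE 0.297) in stage order, and the HE value did not pass without uninduced HE 2 (1.18) or 3 (1.13) or induced HE 1 (1.15) or 3 (1.24). Calcrl itself rose by 1.42 (SE 0.284) in HE2 and 2.10 (SE 0.284) in myeloid progenitors. It did not pass in HE (adjusted P = 0.301) or in progenitors (adjusted P = 0.119). Ackr3, a scavenging receptor that binds adrenomedullin and CXCL12, fell by 1.75 (SE 0.329) in HE and by 1.83 (SE 0.329) in HE2. The ligand Adm changed by 0.05 in HE (SE 0.405), -0.63 in HE2 (SE 0.405), -1.39 in progenitors (SE 0.496) and 0.31 in myeloid progenitors (SE 0.405) and never passed, a gene chosen after its values were seen. Of 6 tested genes of this list, 1 rose in HE, 3 rose in HE2, 2 rose in progenitors, 3 rose in myeloid progenitors, and 1 fell in HE and 1 in HE2.

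Of 17 tested genes that supply or limit nitric oxide, 3 rose in HE, 3 rose in HE2, 2 rose in progenitors, 4 rose in myeloid progenitors, and 0 fell at any stage, with 13 to 15 not passing. Their median change lay between 0.16 and 0.44 on the log2 scale at the 4 stages. Of all genes, 2.39, 2.05, 0.704 and 1.18% fell in stage order, so that 0 falls among 17 genes tell little. Ddah2, which degrades the methylarginines that inhibit nitric oxide synthases, rose by 1.26 (SE 0.203) in HE2, 1.99 (SE 0.248) in progenitors and 2.54 (SE 0.203) in myeloid progenitors. Its HE2 value lost its call under 2 of 19 alternatives. Gch1, the first enzyme in the making of the cofactor tetrahydrobiopterin, rose by 1.12 (SE 0.279) in HE, 1.41 in HE2 and 1.6 in myeloid progenitors. Its HE value lost its call under 9 of 19 alternatives, those without any of 5 of the 6 HE arrays among them (0.96 to 1.21). Cav2, a caveolar coat protein, rose at all stages, by 1.59, 2.78, 1.32 and 2.08 in order. Its progenitor value lost its call under 10 of 17 alternatives, those without any 1 of its 4 arrays among them (1.12 to 1.52). Over all 17 it ran from 0.98, just under 2-fold, to 1.85. Sod3, the extracellular superoxide dismutase, rose by 2.51 (SE 0.467) in HE. Its uninduced HE arrays were dim (5.26, 5.55 and 5.70), and array 1 was not well above background, so the size of the rise is uncertain. It ran from 1.89 to 3.76 under the alternatives and lost its call under 1 of 19.

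Downstream of nitric oxide, of 9 tested genes of the cyclic GMP response 1 rose in HE, 2 rose in HE2, 3 rose in progenitors and 1 rose in myeloid progenitors. Pde2a, a phosphodiesterase switched on by cyclic GMP, rose at every stage, by 2.24 (SE 0.275), 2.60 (SE 0.275), 1.73 (SE 0.337) and 2.57 (SE 0.275). Its progenitor rise did not pass without uninduced progenitor 1 (1.32) or induced progenitor 2 (1.69). Prkg1, the cyclic GMP-dependent kinase, rose by 1.39 (SE 0.255) in HE2 and 1.91 (SE 0.312) in progenitors. Gucy1b1, a subunit of the nitric oxide receptor guanylate cyclase, rose by 1.82 (SE 0.361) in progenitors, and not past the threshold without uninduced progenitor 1 (1.69) or induced progenitor 2 (1.78).

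Of 3 tested endothelin genes, Ecel1, a relative of the converting enzymes, rose by 1.58 (SE 0.218) in HE, and Mme (neprilysin), which breaks down endothelins and other peptides, fell there by 1.42 (SE 0.33), a call lost without uninduced HE 2 (-1.21), uninduced HE 3 (-1.16), induced HE 2 (-1.48) or induced HE 3 (-1.26). Mme was not well above background on induced HE 3 (5.49). Of 10 tested angiotensin and kinin genes, Prcp, a peptidase that inactivates angiotensin II, fell 4.56-fold in HE (-2.19, SE 0.205) and Ctsa, a lysosomal carboxypeptidase, rose by 1.02 (SE 0.192) in HE2, a call lost without uninduced HE2 array 3 (0.89) or induced HE2 array 3 (0.82). Of 5 tested natriuretic peptide genes, Furin, a protease that cuts many precursors, rose by 1.49 (SE 0.198) in myeloid progenitors.

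**Figure D4:**
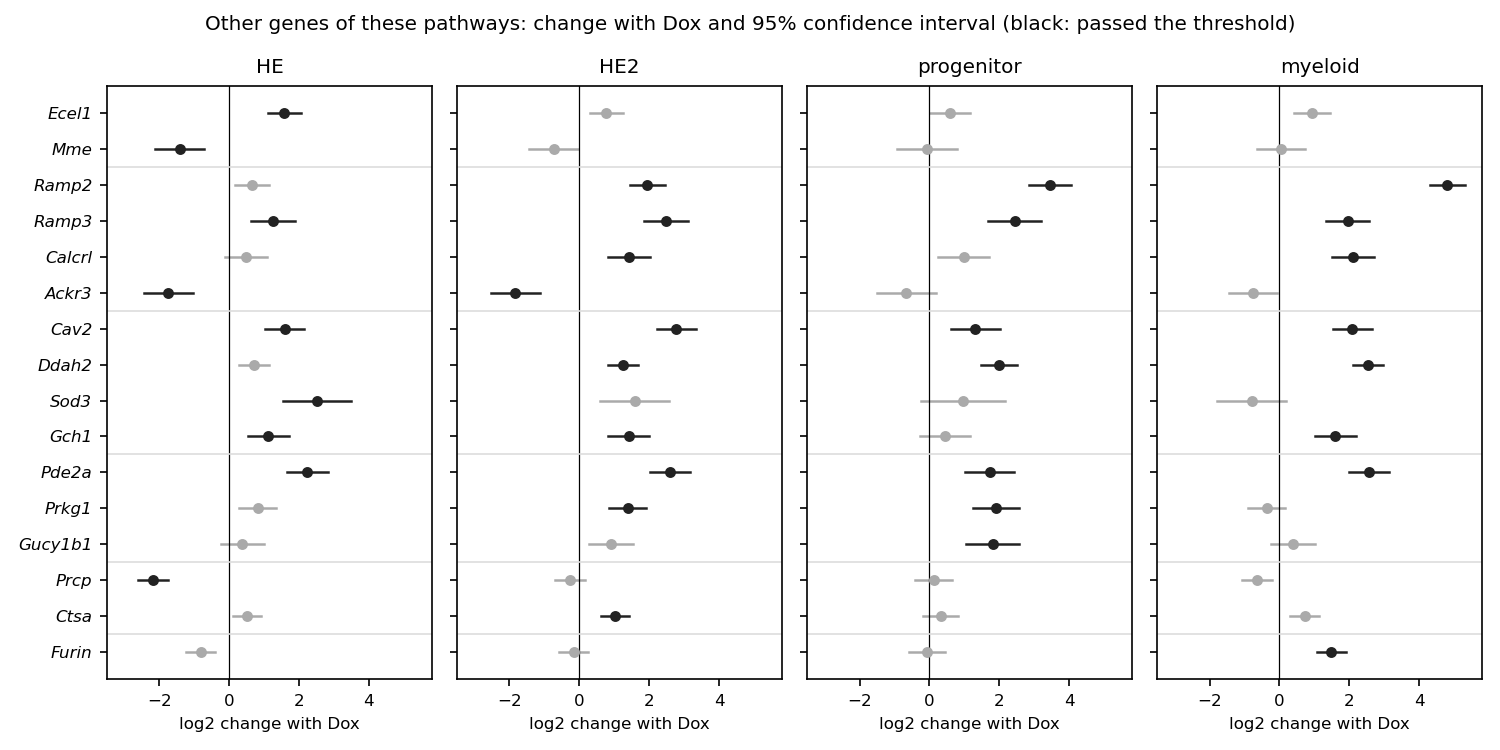
Log2 change with Dox (x axis) of the 16 other pathway genes named in the text (y axis, grey lines between lists) at each stage, with 95% confidence intervals and black where the threshold was passed. Ramp2 in myeloid progenitors (4.81) is the farthest to the right, Ramp3, Cav2 and Pde2a are black at all 4 stages, and Prcp is black only in HE (-2.19).

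Klf2 and Klf4 encode shear-responsive factors known to raise Nos3 and lower Edn1 in endothelium, and are given for reference. Klf2 changed with Dox by 1.18 (SE 0.399, adjusted P = 0.0529) in HE, 2.14 (SE 0.399) in HE2, 1.90 (SE 0.489, adjusted P = 0.0271) in progenitors and 1.61 (SE 0.399) in myeloid progenitors, and passed in HE2 and myeloid progenitors. The myeloid value did not pass without any 1 of 5 of its 6 arrays (1.45 to 1.64). Klf4 rose by 1.64 (SE 0.215) in HE, 2.57 (SE 0.215) in HE2 and 1.88 (SE 0.263) in progenitors and changed by 0.98 (SE 0.215), just under 2-fold, in myeloid progenitors. At the same stages Nos3 changed by -1.24, 0.36, 2.12 and 2.20 and Edn1 by -1.91, 0.07, 2.14 and 1.31.

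The genes whose log2 intensity ran closest to each member over the 22 arrays are given as a description, since the arrays share stages and slides. Closest to Edn1 was Tbx3 (Pearson r = 0.972), closest to Nos3 was Cd109 (0.976) and closest to Ece1 was Rara (0.989). Apln ran closest to Furin (0.912), a gene of the natriuretic peptide list, and Ednra to Kbtbd11 (0.937). Aplnr ran closest to Ets2 (0.921), Ace to Tm4sf4 (0.86) and Ednrb, over 21 arrays, to Gsdme (0.835). Among the members, Edn1, Nos3 and Ece1 correlated with each other at 0.91 to 0.94, and Ace with none above 0.10.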

How the data were processed

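The authors deposited Agilent Feature Extraction output of 23 1-colour arrays, in which each spot has a median intensity and a local background intensity, and a table of log2 values. The version is 10.7.3.1 in the file headers and 10.7.1.1 in the submitters' processing notes. From the intensities, background was corrected by normexp with an offset of 16, 3671 control spots and 100 to 346 outlier spots per array were dropped, and the 23 arrays were quantile normalized in limma 3.58.1 (R 4.3.3). Spots of a probe were averaged, 26582 of 55681 probes received a symbol through RefSeq accessions, and genes reaching a log2 intensity of 6.5 on at least 1 array were kept. Group means of 22 arrays were fitted with limma, with 14 residual degrees of freedom. The number of arrays limits the precision. Members and gene lists were chosen with earlier results of these data known. Named pathway genes were at most 4 per list, by largest change among those past the threshold, and the interaction of progenitors with HE was added later. In the deposited log2 values, 6 of 23 columns matched another array of their group best, with replicates 2 and 3 exchanged. They were nearer to an offset of 50 (median difference 0.016) than to 16 (0.557). Deviations of same-numbered uninduced HE and HE2 arrays correlated at 0.394 to 0.797, and the block changed no call between them.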

Additional observations from a re-analysis of the deposited data

Results flagged for a closer look

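The Dox changes of 4 genes differed between stages by a test of the difference itself, the interaction term in limma. Between progenitors and HE2 the log2 change of Ednra differed by -1.87 (adjusted P = 0.0719). This term passed only at the unadjusted threshold and lost it under 6 of 23 alternatives. Between myeloid progenitors and HE the differences were 3.22 for Edn1, -2.05 for Ednra, 3.44 for Nos3 and 3.65 for Apln. Between progenitors and HE, in terms added after the others had been seen, they were 4.05 for Edn1, -2.87 for Ednra and 3.37 for Nos3.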

How the results depend on the processing

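The alternatives are summarised for 59 results of the 8 genes. These are all Dox changes, all other results that passed or had a low unadjusted P, and 2 changes from HE to HE2 with Dox (Edn1 and Nos3). Other results that did not pass are not included. Of the 59, 30 passed, and all 30 kept their direction under the alternatives run. Of these, 15 lost the threshold under at least 1 alternative, 8 with slide as a block, 9 with scan date as a block and 7 when only the groups compared were fitted. Of 29 that did not pass, 8 passed under at least 1. Of 42 pathway and reference results that passed, 16 lost the threshold under at least 1. Calls between stages without Dox, counted over genes and steps, numbered 10 of 24 tests, and 6 with scan date as a block. Calls between stages with Dox numbered 4 of 16 tests, and 2 with slide or scan date as a block. Without single arrays they numbered 2 to 5. Counted over genes and stages, calls for the Dox change numbered 6 to 8 and interaction calls 4 to 6 without single arrays.

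Among the results summarised, changes that did not pass and turned in sign were as follows, as log2 changes. With 75th percentile scaling, Ece1 in HE was -0.04 and Ednrb in HE2 -0.01. With the mean of its probes Ednrb in HE2 was -0.20. On the other probe Ednrb was -0.02 in HE, -0.50 in HE2 and 0.42 in progenitors, and Nos3 was -0.16 in HE2. With slide as a block Ednrb was -0.04 in HE2 and 0.34 in progenitors, and with scan date 0.12 in progenitors. Without single arrays the Dox change ran from -0.20 to 0.22 for Ece1 in HE, -0.36 to 0.40 for Edn1 in HE2, -0.16 to 1.32 for Aplnr in HE2, -0.11 to 0.41 for Ednrb in HE2 and -0.06 to 0.62 for Nos3 in HE2. It ran from -2.09 to 0.01 for Ace, -0.34 to 1.06 for Aplnr and -1.78 to 0.12 for Ednrb in progenitors, and from -0.30 to 0.07 for Ace and 0.00 to 0.19 for Ednra in myeloid progenitors. The change of Edn1 from HE to HE2 with Dox ran from -0.55 to 0.18. The causes were not tested.

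By the scanner files' numbers, deviations of same-numbered arrays correlated above 0.1 in every pair for uninduced HE and HE2 (3 pairs). The same held for HE2 and progenitors, both uninduced (0.381 and 0.198) and induced (0.164 and 0.121). For uninduced and induced progenitors the 2 pairs gave 0.233. With 2 arrays per group the deviations from the mean mirror each other, so these pairs cannot differ. By the deposited table's numbers every pair was also above 0.1 for uninduced and induced HE2 (0.361 to 0.609) and myeloid progenitors (0.127 to 0.265). With the replicate number as a block, Ece1 from progenitors to myeloid progenitors no longer passed (-1.08), and Edn1 passed with Dox in myeloid progenitors (1.31) and for the difference of the Dox change between HE2 and HE (1.98) and between progenitors and HE2 (2.07). With the exchanged numbers, an alternative chosen after seeing the data, 1 call was lost and 0 gained. Among the 8 genes, signal limits Apln, Ece1 and, for 9 of its 10 spots, Edn1 on uninduced myeloid progenitor 3. It also limits Ace on induced progenitor 2. The spots of these genes were not well above background there.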
